A study of Mus musculus with 19 samples.

Results

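Late-lost progenitor peaks are regions of open chromatin that neural stem and progenitor cells kept through the first day of differentiation and lost afterwards. They were chosen by their normalised reads, that is, reads per peak divided by a size factor of the library. A peak was taken if its mean was at least 50 in neurospheres (NSPs), at 24 h neither below 0.8 times the NSP mean nor so high that the NSP mean was below 0.8 times it, and at most 0.4 times the NSP mean at 1 week, with means of at least 8 at 72 h and at 1 week. Of 90154 peaks, 1599 met the rule (1.77%), which is 2.61% of the 61278 peaks with an NSP mean of at least 50. The size of the set rested on the scaling, since 2538 peaks met the rule after scaling by total reads, 1246 of them among the 1599. The fall from NSPs to 1 week and the level at 24 h are therefore the selection itself and are described below without a test.

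The libraries are ATAC-seq, in which a transposase inserts sequencing adapters into open DNA, from primary neural stem cells isolated at embryonic day 14 from the ventricular zone of single C57BL/6J mouse brains. NSPs (3 libraries) were floating spheres kept proliferating with EGF. All other groups had EGF medium exchanged for medium with 10% fetal bovine serum on coated plates, for 24 h (3 libraries), 72 h (3) or 1 week (4), and 2 further groups of 3 received TNF at 50 ng/ml for 24 h or 72 h. No group at 1 week received TNF. The differentiated cells are astrocytes by their label, which the titles of the NSP libraries also carry. The cells were not sorted for these libraries, so that fewer cells with an open region and less opening per cell cannot be told apart. Whether replicates of a group came from separate brains was not stated for each library, and p-values measure the spread between these libraries.

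Distal open regions often act as enhancers, which raise the transcription of genes that may lie far away on the same chromosome. Neural progenitors of the embryonic forebrain hold open enhancers of patterning, neurogenic and cell cycle genes, and many of these close as the cells take on a glial fate. TNF is an inflammatory cytokine that acts through NF-κB and opens further regions in responding cells.

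Reads in peaks ranged from 9640256 to 39349111 per library, and a late-lost peak held a median of 138 to 191 reads in the NSP libraries, 58 to 82 at 24 h with or without TNF, 33 to 46 at 72 h with or without TNF, and 13 to 33 at 1 week. The names of the 72 h and 1 week libraries carry a tag that the NSP and 24 h libraries lack, so tag and time cannot be told apart between 24 h and 72 h, whereas TNF effects at one time and the step from 72 h to 1 week lie within a tag. NSP replicate 1 stood apart from the other NSP libraries. When it was left out of the rule, 1458 peaks met the rule, of which 924 were among the 1599. Without NSP replicate 2 or 3 the shared peaks numbered 1206 and 1167. As a check of the labels, the summed reads at 33 gene-end peaks of a list of radial glia and neural progenitor genes (26 of 30 genes) were 20805 to 27025 in NSP libraries, 14610 to 16923 at 24 h, 11528 to 13432 at 72 h and 15973 to 17242 at 1 week, so they were lowest at 72 h. For 16 gene-end peaks of astrocyte genes (15 of 20 genes) they were 7888 to 10427, 7332 to 8254, 6491 to 6861 and 7724 to 8196, and no untreated library of a later time lay above the highest NSP library. Sums at gene-end peaks of other cell types were 4627 to 4994 in NSPs and 2484 to 2797 at 1 week for the oligodendrocyte lineage (6 of 14 genes), 359 to 445 and 301 to 355 for microglia (3 of 8 genes), and 451 to 462 and 671 to 711 for fibroblasts and mural cells (3 of 9 genes). Their part in the loss of the peaks was not tested.

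Few late-lost peaks lay at promoters. A RefSeq promoter window (GRCm38.p6, 250 bases before to 50 after a transcription start) was overlapped by 67 of them (4.19%), against 12.0% of all peaks. The share was 16.5% among peaks with an NSP mean of at least 50. It was 3.05% among peaks already lost by 24 h, so a low share was not particular to the late-lost peaks. The 78 windows of the late-lost peaks belong to 73 genes. The 4 windows shown are those of the 4 late-lost promoter peaks with the highest NSP mean. In the order shown, the 1 week means of these peaks were 193, 84.1, 108 and 107 normalised reads, so their signal was reduced and not gone. Each window is printed 5′ to 3′ in the direction of its gene, with capitals for matches to the motifs searched.
Kctd8 (chr5:69341660-69341959, minus strand): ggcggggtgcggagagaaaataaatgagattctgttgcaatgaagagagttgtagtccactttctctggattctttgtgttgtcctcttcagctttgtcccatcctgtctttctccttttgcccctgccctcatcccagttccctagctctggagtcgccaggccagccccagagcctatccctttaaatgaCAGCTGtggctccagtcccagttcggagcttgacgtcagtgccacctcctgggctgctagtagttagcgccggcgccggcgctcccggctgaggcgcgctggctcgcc
Epha10 (chr4:124881535-124881834, plus strand): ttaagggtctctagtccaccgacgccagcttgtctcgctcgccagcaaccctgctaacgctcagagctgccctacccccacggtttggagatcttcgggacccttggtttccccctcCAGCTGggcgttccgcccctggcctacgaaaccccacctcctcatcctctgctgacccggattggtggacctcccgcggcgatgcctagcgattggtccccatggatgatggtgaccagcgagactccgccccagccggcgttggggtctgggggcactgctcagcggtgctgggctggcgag
Slc25a34 (chr4:141623785-141624084, minus strand): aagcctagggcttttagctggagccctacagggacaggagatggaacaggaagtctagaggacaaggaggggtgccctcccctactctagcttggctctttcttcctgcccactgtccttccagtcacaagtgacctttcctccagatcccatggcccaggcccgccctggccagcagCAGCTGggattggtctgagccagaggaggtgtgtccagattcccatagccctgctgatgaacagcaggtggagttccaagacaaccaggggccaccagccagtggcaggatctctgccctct
Bean1 (chr8:104170263-104170562, plus strand): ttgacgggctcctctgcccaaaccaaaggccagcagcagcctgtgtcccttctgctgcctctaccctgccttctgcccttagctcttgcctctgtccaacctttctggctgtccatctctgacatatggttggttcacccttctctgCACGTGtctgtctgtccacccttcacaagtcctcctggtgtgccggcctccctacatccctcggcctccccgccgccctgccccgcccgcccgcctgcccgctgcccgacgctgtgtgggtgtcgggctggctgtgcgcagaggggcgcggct

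The capitals mark CAGCTG, an E-box, in the windows of Kctd8, Epha10 and Slc25a34, and CACGTG, the E-box of USF-type factors, in that of Bean1. The Kctd8, Epha10 and Bean1 windows hold 14, 21 and 16 CpG pairs, whereas that of Slc25a34 holds 1. Over all 78 windows, CAGCTG on either strand was present in 23 (29.5%), against 15.7% of the 13324 windows overlapped by any peak and 16.3% of all 32851 windows. The AP-1 motif TGACTCA was present in 7 (8.97%), against 3.67% and 5.2%. SOX letters (ACAATGG or ACAAAGG) were in 8.97%, against 6.33% and 9.28%, and the NFI letters TTGGCA in 17.9%, against 11.8% and 14.1%. The ETS motif CCGGAAGT was in 1 window (1.28%), against 7.93% of windows with a peak and 3.89% of all windows. Of the remaining motifs, TGACNNNGC (NRF2) was in 14.1%, against 14.4% and 12.4%, GGAATG (TEAD) in 11.5%, against 12% and 14.7%, and CACGTG in 11.5%, against 10% and 7.15%. ATGCAAAT (POU) was in 2 windows (2.56%), against 1.46% and 1.74%. TAATTA (homeodomain), GTTGCCA (RFX) and the NF-κB letters GGAATTTCC or GGGACTTTC were in 1 window each (1.28%). In that order, their shares were 2.3%, 4.48% and 0.63% of windows with a peak, and 5.29%, 4.38% and 0.67% of all windows. A window with several motifs was counted for each. The windows had a median GC content of 61.3%, against 61.7% in windows with any peak, and a median of 16 CpG pairs, against 21. A match describes the letters and is not a binding site, and most late-lost peaks overlap no window, so their own sequence was not searched.

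Kctd8, an auxiliary subunit of GABA-B receptors, had the highest promoter signal of the set (peak at chr5:69341438-69341938, sharing 279 of the 300 bases of its window). Its normalised reads were 529.8, 494 and 599 in NSPs, 507, 502 and 463 at 24 h, 185, 221 and 231 at 72 h and 167, 188, 227 and 192 at 1 week. In the cultures with TNF they were 437, 543 and 468 at 24 h and 216, 251 and 214 at 72 h. All 6 libraries of 24 h lay above all 10 of 72 h and 1 week. At Epha10, an Eph receptor without kinase activity (chr4:124881491-124881991), the means ± SD were 322 ± 51.3 in NSPs, 271 ± 17.6 at 24 h, 123.6 ± 11.5 at 72 h and 84.1 ± 22.6 at 1 week. At Slc25a34, a mitochondrial carrier (chr4:141623702-141624202), they were 281 ± 29.7, 236 ± 46.6, 172 ± 60.9 and 108 ± 12.99, and the 72 h libraries spread from 116 to 237, so that they overlapped those of 24 h and of 1 week. At Bean1 (chr8:104170405-104170905) they were 279.7 ± 14.1, 228 ± 37.5, 145 ± 20.3 and 107 ± 7.24. At all 4 promoters the means, which the rule used, fell in the order NSPs, 24 h, 72 h and 1 week, as they did at 51 of the 67 promoter peaks.

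The position of a peak was not used by the rule. The centre of 108 late-lost peaks (6.75%) was at most 1 kb from where a protein-coding gene starts or ends, against 14.99% of all peaks. The Wilson 95% interval of the 6.75%, 5.62 to 8.09, takes peaks as independent, although 148 lay within 50 kb of another late-lost peak. It covers counting error only and is no test against the other shares. The share was 24.6% among the 24219 peaks kept at 24 h by the same limits whatever their later level, and 3.32% among 2981 peaks already lost by 24 h, that is, at most 0.4 of NSPs at 24 h and at 1 week with the same floors. A further 760 late-lost peaks (47.5%) lay inside a gene and 731 (45.7%) between genes. Their median distance to the nearest gene end was 39.2 kb, against 20.1 kb for all peaks and 10.9 kb for those kept at 24 h. In 44.3% of them it was over 50 kb, against 30.7% of all peaks. Both sets of lost peaks thus held lower shares at gene ends than all peaks, and the peaks kept at 24 h held a higher one. Neither strand nor exons are in the gene table, so the starts of genes were not told from their ends, nor introns from exons.

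**Figure D1:**
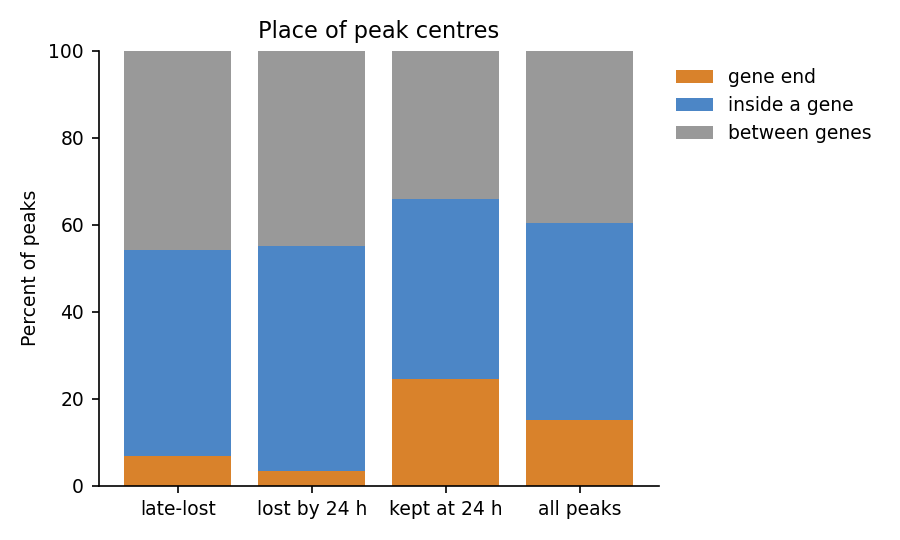
Stacked bars give the percent of peaks (y axis) with their centre within 1 kb of a gene end, inside a gene or between genes, for the 1599 late-lost peaks, the 2981 lost by 24 h, the 24219 kept at 24 h (which hold the late-lost peaks) and all peaks with a position. Gene ends hold 6.75%, 3.32%, 24.6% and 14.99%.

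In the untreated course, which chose the peaks, the median of the late-lost peaks ran from 87.6 to 91.7 normalised reads over the NSP libraries and from 85.4 to 87.4 over those of 24 h. The 72 h libraries had medians of 48.9 to 49.7, and those of 1 week had medians of 25.7 to 28.6. The median over all peaks stayed between 78.9 and 87.2 in every library. Late-lost peaks took 1.08% to 1.12% of reads in peaks in NSPs, 0.684% to 0.698% at 72 h and 0.314% to 0.323% at 1 week. The level at 72 h was free apart from its floor, and it lay between the neighbouring times: the 72 h mean was under the 24 h mean at 1561 peaks, and the 1 week mean was under that of 72 h at 1551. Every 72 h library was below every 24 h library at 1193 peaks (background 22.1% of tested peaks), and every 1 week library below every 72 h library at 1000 (background 17.5%). The reverse held at 0 (background 20.2%) and 4 peaks (background 26.7%). Since the 24 h and 1 week libraries entered the rule, nothing is read from these counts.

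**Figure D2:**
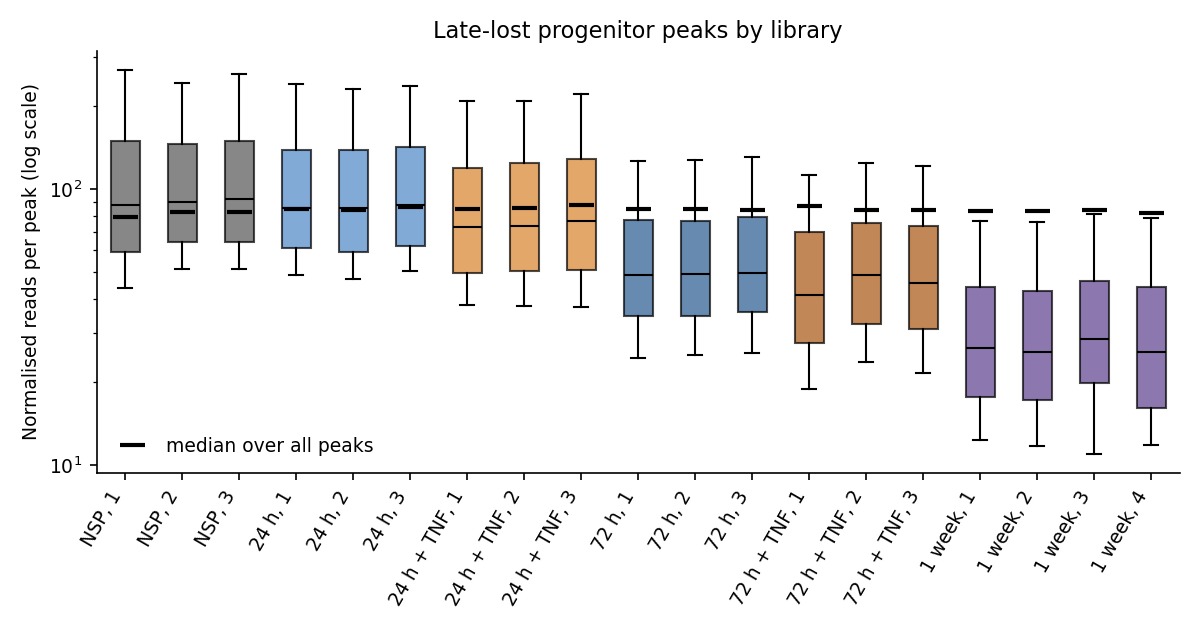
Boxes give the quartiles and median, and whiskers the 10th and 90th percentiles, of normalised reads (log scale) over the 1599 late-lost peaks in each of the 19 libraries, and short bars the median over all peaks. The late-lost peaks sit near the median of all peaks in NSPs and at 24 h, below it at 24 h with TNF and at 72 h, and lowest at 1 week, where their medians are 25.7 to 28.6.

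The level left at 72 h varied between peaks. Peaks with no signal left could not be in the set, because the rule asked for means of at least 8 at 72 h and 1 week. The ratio of the 72 h mean to the NSP mean had a median of 0.525 and ranged from 0.180 to 1.48. It was at most 0.4 at 306 peaks (19.1%), between 0.4 and 0.8 at 1167 (73.0%) and at least 0.8 at 126 (7.88%). The 3 peaks with the lowest ratio lay between genes. The one nearest to Dmac1, 64.3 kb away (chr4:75212844-75213344), had 63.8, 69.3 and 83.8 normalised reads at 24 h, 12.9, 15.6 and 17.8 at 72 h and 6.17, 7.01, 19.8 and 4.29 at 1 week, a fall mostly complete by 72 h. Another, nearest to Il1rapl1, an X-linked synaptic receptor, 393 kb away (chrX:88508314-88508814), had 135, 131 and 103 at 24 h and 15.4, 17.9 and 37.0 at 72 h, and at 24 h with TNF its values of 45.1, 57.1 and 44.7 were already below every untreated 24 h library. The one nearest to Smim31 (chr8:65252210-65252710) had 55.8, 44.3 and 46.8 at 24 h, 14.2, 10.8 and 10.2 at 72 h and 14.99, 10.1, 15.4 and 20.4 at 1 week, and its 72 h and 1 week libraries overlapped.

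The 3 highest ratios belonged to peaks that were still open at 72 h and lost between 72 h and 1 week. A peak within Cox4i2, an isoform of a cytochrome c oxidase subunit (chr2:152757413-152757913), had 95.2, 39.1 and 56.5 normalised reads in NSPs, 78.5, 94.5 and 109.6 at 72 h and 15.9, 24.9, 19.8 and 17.2 at 1 week. One within Mroh5 (chr15:73800575-73801075) had 70.7, 42.4 and 44.5, 69.5, 63.4 and 66.3 and 19.4, 18.7, 22.0 and 16.1. One within Xrn1, a cytoplasmic RNA exonuclease (chr9:96004380-96004880), had 19.3, 54.6 and 77.1, 63.1, 51.4 and 59.9 and 11.5, 14.0, 15.4 and 13.9. In all 3, every 72 h library was above every 1 week library, whereas the NSP libraries overlapped those of 72 h, and the low NSP value of replicate 1 at Xrn1 lowered the mean that forms the ratio.

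The strongest NSP signals of the set were at 5 peaks. A peak within Gphn, which encodes the inhibitory synapse scaffold gephyrin (chr12:78350740-78351240), had 2724, 991 and 1261 normalised reads in NSPs, 1489, 1784 and 1089 at 24 h, 656, 1322 and 1154 at 72 h and 496, 469.9, 733 and 928 at 1 week. Its NSP mean rested on replicate 1. The peak nearest to Pabpc6 (chr17:9579992-9580492), 86.3 kb from the gene, had 2061, 1398 and 1469 in NSPs, 1275, 1351 and 1376 at 24 h, 736, 988 and 924 at 72 h and 553, 568, 713 and 536 at 1 week. At Pde1b, a calmodulin-dependent phosphodiesterase (chr15:103518498-103518998), the means ± SD were 1257 ± 242, 1037 ± 35.4, 599.6 ± 68.1 and 485 ± 26.1. At the peak 5.33 kb from Tvp23a (chr16:10452467-10452967) they were 1087 ± 116, 922 ± 66.7, 559.8 ± 49.4 and 347 ± 23.9, and at Specc1 (chr11:62106385-62106885) 1057 ± 314, 854 ± 108, 425 ± 12.4 and 289.8 ± 36.9. Replicate 1 was the highest NSP library at 4 of the 5, and Tvp23a was the exception.

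At the limits of the rule, the NSP mean was 50.1 at the lowest peak taken (nearest to Nfatc2) and 49.999 at the highest left out (nearest to Ncf4). The ratio of 24 h to NSPs was 0.80008 just inside (Lrig3) and 0.79995 just outside (Actbl2) at its lower end, and 1.2499 (Arl5a) and 1.2516 (Csmd1) at its upper end. The ratio of 1 week to NSPs was 0.39992 inside (Ddhd1) and 0.40004 outside (Dclk2). The lowest 1 week mean was 8.17, and among peaks outside chromosome 18 and unplaced scaffolds, where peaks are named, it was 8.34 inside (Zdhhc25) and 7.996 outside (Rarres1). The set thus has no gap at its edges.

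The 6 libraries with TNF entered no part of the rule, and they were used to ask whether the same peaks also fell between 24 h and 72 h in cultures that had not chosen them. Of the 1599 late-lost peaks, 727 were lower at 72 h with TNF than at 24 h with TNF and 0 were higher (limma-trend, adjusted p under 0.05). The background over the 88919 peaks tested was 11.5% lower and 10.3% higher. The lower calls are 45.5% of the late-lost peaks, all of which passed the filter on low values. At an unadjusted p under 0.05, 1009 were lower (background 18.1%) and 1 was higher (background 17%). edgeR called 770 lower (background 11.9%) and 0 higher (background 11.4%), and DESeq2 800 (background 12.3%) and 0 (background 12.2%). The median log2 change was -0.74, against -0.01 over all peaks tested, and 1533 of the changes (95.9%) were negative, against 50.7%. Among the 22620 peaks kept at 24 h that were not late-lost, 9.47% were lower and 11.9% higher, with a median of 0.06. Among the peaks lost by 24 h, 16.4% were lower and 0.671% higher, with a median of -0.34. The TNF libraries did not overlap, with all of 72 h below all of 24 h, at 1097 late-lost peaks (68.6%, background 22.6%), and they did so in the opposite direction at 4 (background 21.6%). Leaving out each of these libraries in turn gave 540 to 640 lower calls, and among the 1458 peaks chosen without NSP replicate 1 there were 707 (48.5%). The library tag changes with time in this arm as well and cannot be told apart from it.

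The change in the TNF arm was larger where the untreated level at 72 h was lower, and the 2 measures share no library. Where the untreated 72 h mean was at most 0.4 of NSPs, 220 of 306 peaks (71.9%) were lower in the TNF arm, with a median log2 change of -1.10. Between 0.4 and 0.8 it was 489 of 1167 (41.9%), with a median of -0.69, and at 0.8 or above 18 of 126 (14.3%), with a median of -0.38. Peaks at gene ends were lower in 56 of 108 (51.9%), with a median of -0.75. Those inside genes were lower in 312 of 760 (41.1%) and those between genes in 359 of 731 (49.1%), with medians of -0.71 and -0.76. Of the 67 peaks at promoter windows, 36 were lower (53.7%), with a median of -0.82. The share was 45.5% in the whole set and 11.5% over all peaks tested of any position. Shares of all peaks by position were not computed, so nothing is read from the differences between classes.

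**Figure D3:**
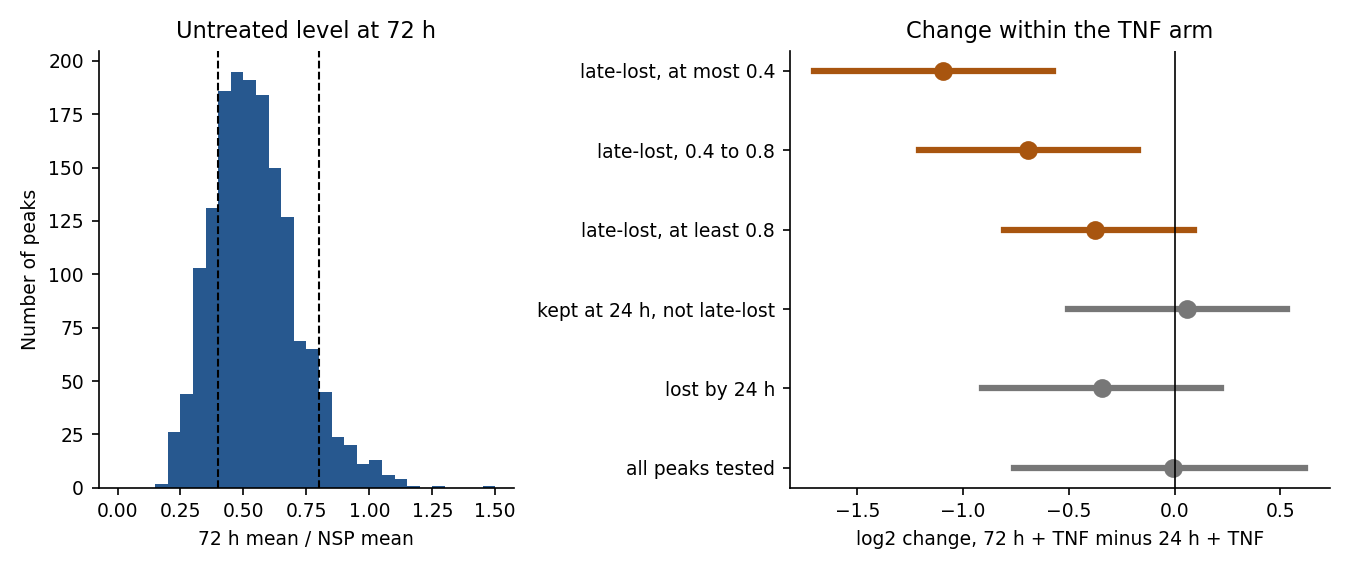
The histogram counts the late-lost peaks by the ratio of the untreated 72 h mean to the NSP mean, with dashed lines at 0.4 and 0.8. On the right, dots give the median and bars the 10th to 90th percentile of the log2 change from 24 h to 72 h with TNF, for the late-lost peaks in each of these 3 ranges (medians -1.10, -0.69 and -0.38) and for 3 other sets of peaks (0.06, -0.34 and -0.01).

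The 5 decreases in the TNF arm with the smallest p-values and no overlap of libraries had log2 changes from -2.23 to -1.25. Within H13, which encodes signal peptide peptidase (chr2:152705878-152706378), normalised reads were 708, 668 and 749.8 at 24 h with TNF and 272, 273 and 232 at 72 h with TNF, a log2 change of -1.45 (SE 0.15) (limma-trend adjusted p = 3.4e-08). Without TNF they were 631, 774 and 775 at 24 h and 314, 330.1 and 340.3 at 72 h. The peak 633 kb from Dnah5, a dynein heavy chain of motile cilia (chr15:29104544-29105044), had 485, 518 and 525 at 24 h with TNF and 153, 219 and 162 at 72 h with TNF, a change of -1.53 (SE 0.16) (limma-trend adjusted p = 3.6e-08). Within Ism1, which encodes the secreted protein isthmin (chr2:139678362-139678862), the values were 333, 378 and 334 and 146, 148 and 145 (log2 change -1.25 (SE 0.13), limma-trend adjusted p = 3.7e-08).

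Without TNF, the 1 week means of H13, Dnah5 and Ism1 were 211, 181 and 181, against 328, 160.2 and 135 at 72 h, so that H13 was lower still at 1 week and the other 2 were not. The peak 94.7 kb from Dkk2, a secreted modulator of Wnt signalling (chr3:132274759-132275259), fell from 228, 214 and 225 at 24 h with TNF to 59.0, 79.8 and 73.2 at 72 h with TNF (log2 change -1.65 (SE 0.17), limma-trend adjusted p = 5e-08). The peak 72.5 kb from Mbnl3, an RNA-binding splicing regulator (chrX:51278195-51278695), fell from a mean of 304 ± 17.1 (SD, n = 3) to 66.1 ± 19.6 (SD, n = 3), with a log2 change of -2.23 (SE 0.24) (limma-trend adjusted p = 7e-08). At Mbnl3 the untreated 72 h libraries held 90.1, 102 and 61.2 and overlapped those with TNF.

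Whether TNF altered the level of these peaks at 72 h was asked against the untreated 72 h libraries, which entered the rule only through the floor of 8. With TNF, 98 late-lost peaks were lower (6.13%, background 5.55%) and 33 higher (2.06%, background 6.24%) in limma-trend. The share of lower calls is near the background and is no result about the set. The median log2 change was -0.16, against 0.03 over all peaks tested, and 63.6% of changes were negative, against 46.8%. Of the 126 peaks still at 0.8 of NSPs or more at 72 h, 18 (14.3%) were lower with TNF and 1 was higher, with a median of -0.44, whereas of the 306 at most at 0.4, 9 were lower and 12 higher, with a median of 0.01. Those classes were cut on the untreated 72 h libraries that also enter this change, so the difference between them is a description. The mean at 72 h was at most 0.4 of NSPs at 306 peaks without TNF and at 512 with TNF, with 221 in common. This count was not made over all peaks, so nothing is read from the difference. Over all peaks, the 10th percentile of the ratio to NSPs was 0.412 without TNF and 0.385 with TNF. Without 72 h replicate 1, 72 h replicate 3 or 72 h TNF replicate 1, the lower calls were 54, 55 and 56, and without 72 h replicate 1, 72 h TNF replicate 2 or 72 h TNF replicate 3 the higher calls were 19, 18 and 20. The interaction term, which asks whether the TNF change differed between 72 h and 24 h, gave 0 calls in either direction among late-lost peaks by limma-trend and edgeR (background 0.00112% lower and 0% higher by each) and by DESeq2 (background 0.0753% lower and 0.0202% higher). At an unadjusted p under 0.05 in limma-trend it gave 21 lower (background 3.92%) and 67 higher (background 3.59%).

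The 3 decreases with TNF at 72 h that met the rule for named peaks were as follows. The peak 31.7 kb from Marcks, a substrate of protein kinase C at the plasma membrane (chr10:37170420-37170920), had 252, 301 and 312 normalised reads at 72 h and 132, 168 and 110.4 with TNF, a log2 change of -1.08 (SE 0.14) (limma-trend adjusted p = 5.8e-06). The peak 469 kb from Nrsn1, a neuronal vesicle protein (chr13:25738503-25739003), had 154, 163 and 189.9 and 67.9, 66.5 and 87.6 (log2 change -1.19 (SE 0.18), limma-trend adjusted p = 2.9e-05). Within Dlgap3, a postsynaptic scaffold (chr4:127232182-127232682), the values were 252, 236 and 274 and 119.8, 149 and 149 (log2 change -0.87 (SE 0.14), limma-trend adjusted p = 7.3e-05). At all 3, the libraries with TNF at 72 h overlapped those at 1 week without TNF, whose means were 126, 83.9 and 123.

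The 3 increases were larger. Within Ngfr, which encodes the p75 neurotrophin receptor (chr11:95574994-95575494), normalised reads were 164, 185 and 130.2 in NSPs, 104, 64.6 and 82.8 at 72 h and 305, 303 and 314 at 72 h with TNF, a log2 change of 1.89 (SE 0.17) (limma-trend adjusted p = 1.9e-08). Within Tshz2, a zinc finger transcription factor (chr2:169928305-169929185), they were 57.2, 65.0 and 81.7, 33.5, 20.3 and 58.6 and 174, 149 and 210.0 (log2 change 2.33 (SE 0.28), limma-trend adjusted p = 1.5e-06). At the peak 264 kb from Eea1, an early endosome tether (chr10:96309647-96310147), they were 55.5, 71.1 and 57.8, 41.2, 25.1 and 31.9 and 172, 171 and 185 (log2 change 2.42 (SE 0.30), limma-trend adjusted p = 2e-06). With TNF, these 3 peaks were above every NSP library at 72 h, whereas at 1 week without TNF their means were 32.3, 27.0 and 15.4. Of the 33 late-lost peaks higher with TNF at 72 h, 10 had a mean with TNF at or above that of NSPs.

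**Figure D4:**
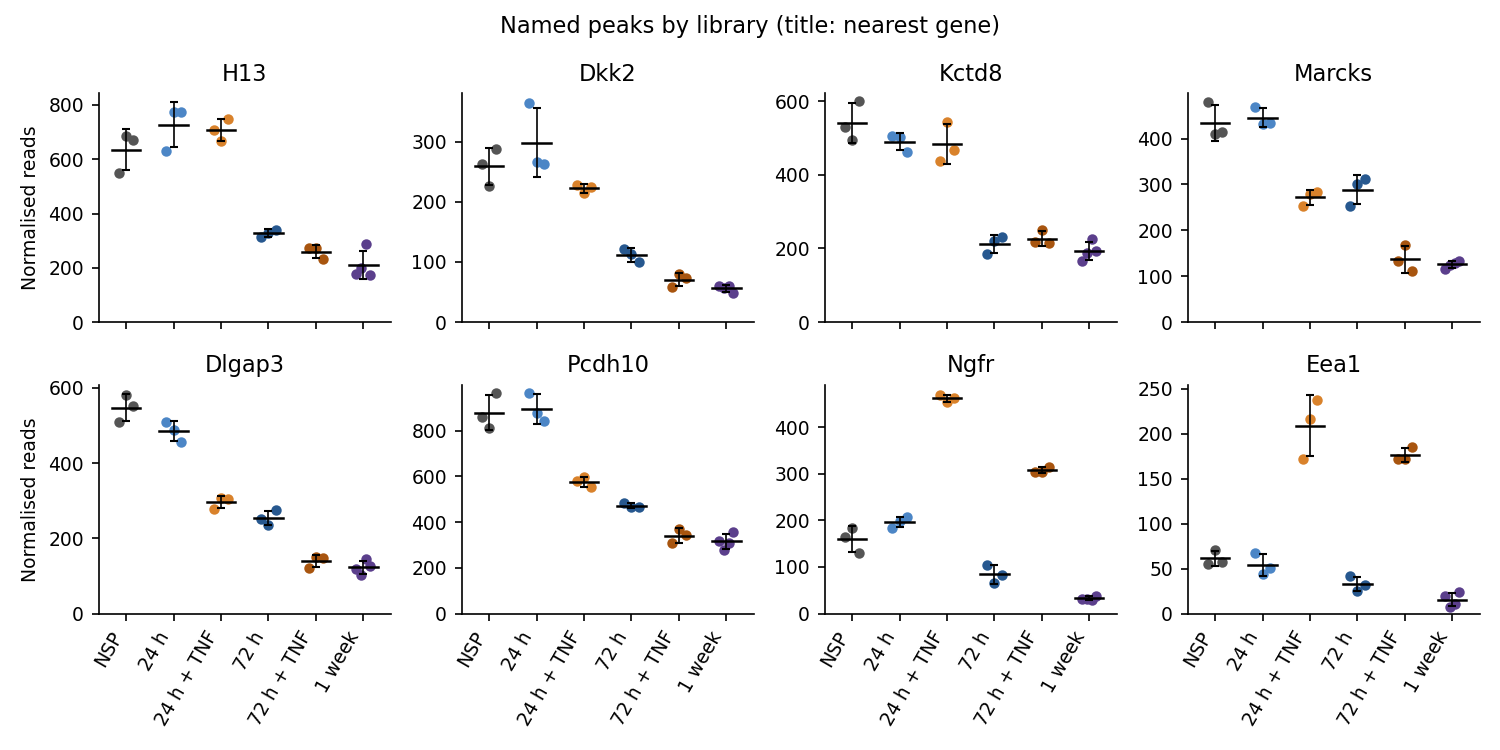
Normalised reads (y axis, from 0) of 8 late-lost peaks in each library, by group, with bars for the mean and SD (n = 3, and 4 at 1 week). Kctd8, H13 and Dkk2 fall between 24 h and 72 h with or without TNF, Marcks, Dlgap3 and Pcdh10 are lower with TNF at both times, and Ngfr and Eea1 are higher with TNF at both times.

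At 24 h the untreated libraries had chosen the peaks by a level of at least 0.8 of NSPs, so the TNF effect at that time is a description. In limma-trend, 94 late-lost peaks were lower with TNF (5.88%, background 3.53%) and 16 higher (1%, background 7.06%), with a median log2 change of -0.25 against -0.03 over all peaks. Among the peaks kept at 24 h by the same limits but not late-lost, 2.82% were lower and 4.95% higher, with a median of -0.05. The mean at 24 h with TNF was under 0.8 of NSPs at 836 late-lost peaks (52.3%), within the range of the rule at 662 and above it at 101, against 23.1% under 0.8 among those kept peaks. It was at most 0.4 at 19. DESeq2 called 144 lower (background 4.46%) and 27 higher (background 7.7%), and limma-trend on the compared groups only 253 (background 6.47%) and 52 (background 9.52%). The lower calls were 35 without 24 h replicate 1, 45 without 24 h replicate 2, and 42, 47 and 46 without each 24 h TNF library in turn. The higher calls were 10 without 24 h replicate 1 or 24 h TNF replicate 1 and 7 without 24 h TNF replicate 3.

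The 3 named decreases at 24 h were each free of overlap between the groups. The peak 58.4 kb from Adgrb3, an adhesion receptor of synapses (chr1:25008794-25009294), had 332, 309.8 and 287 normalised reads at 24 h and 132, 163 and 168 with TNF (log2 change -1.01 (SE 0.17)). Within Pcdh10, a protocadherin (chr3:45384959-45385459), the values were 965, 876 and 840.0 and 579, 597 and 554 (log2 change -0.63 (SE 0.11)). The peak 429.9 kb from Tbc1d2b (chr9:90700414-90700914) had 250.5, 243 and 252 and 126, 136 and 119 (log2 change -0.97 (SE 0.18)). That lack of overlap is required by the rule for named peaks. Of the named increases, Ngfr had 184, 198 and 207 at 24 h and 469, 455 and 462 with TNF, Eea1 67.2, 44.3 and 50.5 and 172, 217 and 238, and a peak within Usp12, a deubiquitinating enzyme (chr5:146776892-146777392), 75.1, 91.5 and 55.4 and 141, 167 and 244 (log2 changes 1.23, 1.94 and 1.29).

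The TNF effects at the 2 times share no library. Lower calls at both times numbered 35, which is 37.2% of those at 24 h and 35.7% of those at 72 h, and higher calls at both times numbered 7, 43.8% and 21.2%. No peak was called in opposite directions. Over all peaks tested the shared lower calls were 52.7% and 33.5%, and the shared higher calls 51.7% and 58.5%. Across the 1599 peaks the log2 changes at the 2 times had a Pearson r of 0.53, against 0.65 across all peaks tested, where peaks share libraries and are not independent replicates. Of the 42 late-lost peaks higher with TNF at either time, 22 were lower at 72 h than at 24 h within the TNF arm, and of the 157 lower with TNF at either time, 94 were.

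**Figure D5:**
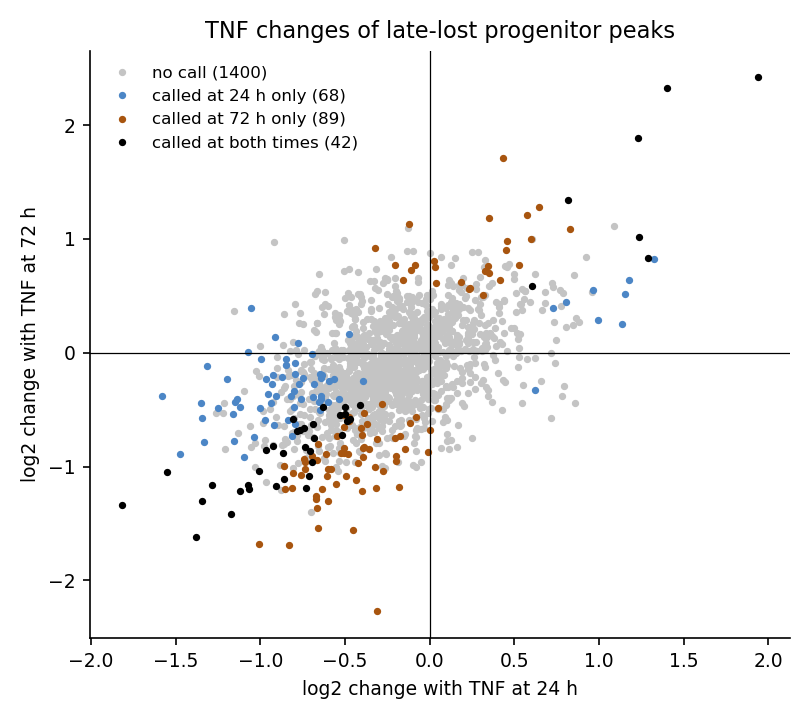
Each point is a late-lost peak, by its log2 change with TNF at 24 h (x axis) and at 72 h (y axis), coloured by whether limma-trend called it at neither time, 24 h only, 72 h only or both. The 42 peaks called at both times lie in the lower left (35) and upper right (7).

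Genes were assigned to peaks as the nearest protein-coding gene, which need not be the gene a region acts on. The 1599 peaks had 1325 nearest genes, of which 1105 had 1 peak, 178 had 2, 32 had 3 and 10 had at least 4. Within 50 kb of another late-lost peak lay 148 (9.26%). Pik3r1, a regulatory subunit of phosphoinositide 3-kinase, had 5 of its 45 peaks in the set, all outside the gene over a span of 517 kb on chromosome 13, with 1 week means of 0.137 to 0.323 of NSPs. Syne1, which encodes the nuclear envelope protein nesprin-1, had 5 of 27, and 3 of these were lower in the TNF arm (whole set 45.5%, all peaks tested 11.5%). Tied at 4 were Agbl1, Gli3, Ltbp1, Nr2f1, Nrp1, Rbfox1, Reep3 and Unc5c. All 4 at Rbfox1, a neuronal splicing factor, were lower in the TNF arm, with log2 changes from -2.25 to -1.06. At Unc5c, a netrin receptor, the 4 peaks lay inside the gene, with 72 h means of 0.261 to 0.476 of NSPs and 2 lower in the TNF arm. At Nr2f1, a forebrain patterning factor, 3 of 4 were lower there, and at Ltbp1, which binds latent TGF-beta, 0 of 4 (log2 changes -0.81 to -0.32).

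The gene lists describe where the set lay. Of 441 peaks nearest to 30 radial glia and neural progenitor genes, 10 were late-lost (2.27%, against 1.77% of all peaks), among them 4 at Gli3 and 2 at Notch1. In the TNF arm, 5 of the 10 were lower, near the 45.5% of the whole set (all peaks tested 11.5%). Gli3 encodes a transcription factor of Hedgehog signalling. The peak within it (chr13:15556518-15557018) had 559.6, 413 and 466 normalised reads in NSPs, 502, 454 and 419 at 24 h, 228, 185 and 192 at 72 h and 151, 134, 128 and 118 at 1 week, and 309.5, 312 and 238 at 24 h with TNF, below every untreated 24 h library. Its log2 change in the TNF arm was -0.77 (SE 0.15) (limma-trend adjusted p = 0.00042). A second one, 50.8 kb from Gli3 (chr13:15412652-15413152), had means of 151 in NSPs, 121 at 24 h, 84.2 at 72 h and 53.4 at 1 week. A peak 37.9 kb from Notch1, the receptor that maintains progenitors (chr2:26541438-26541938), had 122, 123.9 and 104 in NSPs, 104, 94.5 and 117 at 72 h and 30.0, 61.6, 50.6 and 41.8 at 1 week, and was among those that fell after 72 h.

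Of 244 peaks nearest to 26 neurogenic and neuronal genes, 6 were late-lost (2.46%). In the TNF arm, 4 of the 6 were lower (whole set 45.5%, all peaks tested 11.5%), too few to set the list apart. The peak 78.7 kb from Dlx2, a factor of interneuron development (chr2:71625213-71625713), had means ± SD of 140.2 ± 33.4 in NSPs, 118 ± 29.1 at 24 h, 60.9 ± 15.02 at 72 h and 29.5 ± 1.84 at 1 week (log2 change in the TNF arm -0.98, limma-trend adjusted p = 0.0063). Within Dcx, which encodes the microtubule protein doublecortin of migrating neurons (chrX:143881787-143882287), it was 85.99 ± 8.22, 78.3 ± 12.9, 37.6 ± 14.1 and 17.5 ± 6.47 (TNF arm -1.17, limma-trend adjusted p = 0.0089).

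Axon guidance and synapse genes held the largest share of the 10 lists, with 33 of 904 peaks (3.65%) at 19 of 32 genes. In the TNF arm, 15 of the 33 were lower, with a median of -0.82. That is near the 45.5% of the whole set (all peaks tested 11.5%) and is no trait of the list. Within Ephb1, an Eph receptor (chr9:101938919-101939419), normalised reads were 442, 225 and 234 in NSPs, 245, 258 and 244 at 24 h, 104, 82.5 and 144 at 72 h and 60.8, 71.7, 68.2 and 47.2 at 1 week (TNF arm -0.72, limma-trend adjusted p = 0.023). Within Robo1, the receptor of Slit ligands (chr16:72610564-72611064), they were 464, 122 and 108 in NSPs and 183, 177 and 212 at 24 h, so the NSP mean again rested on replicate 1, and the TNF arm change of -0.41 did not pass the test (limma-trend adjusted p = 0.37). Within Lrrtm4, a synaptic adhesion protein (chr6:80209387-80209887), the means fell from 219 in NSPs and 233 at 24 h to 110.2 at 72 h and 67.9 at 1 week (TNF arm -0.72, limma-trend adjusted p = 0.012).

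The other lists held few late-lost peaks: 2 of 322 for astrocyte genes (0.621%), 2 of 311 for EGF receptor signalling (0.643%), 1 of 96 for the cell cycle (1.04%), 1 of 129 for NF-κB and reactive astrocyte genes (0.775%), 1 of 102 for the oligodendrocyte lineage (0.98%), 1 of 39 for microglia (2.56%) and 0 of 42 for fibroblasts and mural cells. The astrocyte peaks were 42.5 kb from Cd44, the hyaluronan receptor that also marks glial precursors (chr2:102943918-102944418; means 129 in NSPs, 144 at 24 h, 48.3 at 72 h and 27.5 at 1 week), and 461 kb from Gja1, the gap junction protein connexin 43 (chr10:56850711-56851211). The Gja1 peak had 84.9, 94.5 and 102 normalised reads at 72 h and 58.1, 38.4 and 63.6 with TNF (log2 change -0.83, limma-trend adjusted p = 0.023). Of the EGF list, the peak 295 kb from Myc (chr15:61690419-61690919) had means of 204 in NSPs, 142 at 72 h and 50.8 at 1 week, and that 223 kb from Spry2, a feedback inhibitor of receptor tyrosine kinases (chr14:105668908-105669408), 64.2, 32.7 and 24.3. The peak 9.38 kb from Mcm5, a subunit of the replicative helicase (chr8:75137572-75138072), went from 95.5, 93.7 and 107 at 24 h with TNF to 33.1, 44.3 and 33.6 at 72 h with TNF (log2 change -1.40, limma-trend adjusted p = 0.00011). The peak within Sbno2, a transcriptional regulator downstream of STAT3 (chr10:80063152-80063652), had 129, 130.4 and 116 at 24 h with TNF and 43.8, 39.9 and 48.0 at 72 h with TNF (log2 change -1.49, limma-trend adjusted p = 0.00022), and its level did not pass the test for TNF at 72 h (log2 change -0.04). The gene-end peak of Tmem119, a microglial membrane protein (chr5:113800189-113800689), had means of 72.5 in NSPs and 27.2 at 1 week.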

How the data were processed

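ATAC-seq of 19 libraries in 6 groups was analysed, with groups taken from the sample titles. The NSPs are the untreated 0 h libraries, which the titles also call astrocytes. According to the methods and the submitters' processing notes, the authors used Trim Galore for trimming, Bowtie2 for alignment to mm10, SAMtools for filtering, MACS2 for peak calling without blacklisted regions, and HOMER and DiffBind downstream. Versions, duplicates, the transposase shift and whether peaks were called per sample are not given in the sources used here. The deposited table holds a normalised signal per peak, in which all values (tolerance 0.001 reads) were whole multiples of the lowest value in their library, so reads over a size factor were recovered. These intervals and depths cover counting error only, and recovered reads may not be independent fragments.

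Because the values were normalised, log2(value + 1) was fitted with limma-trend (limma 3.58.1, R 4.3.3) over all 19 libraries, 1 mean per group, no covariates, two-sided, with Benjamini-Hochberg adjustment over the 88919 peaks kept by edgeR's filterByExpr (minimum count 10, 1235 left out). Fold changes understate those of low peaks. edgeR 4.0.16 and DESeq2 1.42.0 on the recovered reads were alternatives, with other scalings, pseudocounts and filters, each library left out, and a replicate block. The fit was tested on simulated data for the TNF arm only, with the same relative spread at all peaks and no tag effect. That setting is simpler than these libraries, so nothing is read from it. The late-lost peaks, the gene lists and the motifs were chosen with earlier results of these data known. Named peaks were the 5 with the highest NSP mean, the 3 lowest and 3 highest ratios of 72 h to NSPs, up to 5 calls per direction in the TNF arm and 3 for TNF at each time by smallest p without overlap of libraries, up to 3 per gene list and up to 4 at promoters by NSP mean, those nearest each threshold, and the genes with the most peaks. The rule asked for 5 such genes, and all 10 with at least 4 are given because of ties. Peaks on chromosome 18 and unplaced scaffolds are counted but not named, and some named results are not reported here. Genes came from a RefSeq table of GRCm38.p6, the assembly of mm10, with 21900 protein-coding genes, and promoter sequences from RefSeq on the same build. No genome was used, so motifs were searched in promoter windows only, and coordinates are printed as in the table.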

Additional observations from a re-analysis of the deposited data

Results flagged for a closer look

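Among the 46 named peaks, the 4 libraries of 1 week were checked for a value far from the others. In the peak within Usp12 (chr5:146776892-146777392), 1 library had 25.7 normalised reads and the others 28.6, 29.0 and 29.1, so that the gap to the nearest was 0.855 of the whole range, above Dixon's 95% critical value for 4 samples. Chance alone passes about 5% of such groups, and the 4 values differ by less than 4 normalised reads.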

How the results depend on the processing

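Calls at late-lost peaks rest on 3 libraries per group, and none compares the 1 week libraries. At 1 week the median was 13 to 33 reads per peak, which limits the precision of the ratios that chose the peaks. The rule has sharp limits in a continuous range, and leaving out 1 library of the rule gave 1458 to 1686 peaks. Of the 1599, 924, 1206 and 1167 were still chosen without NSP replicate 1, 2 or 3. Without a 24 h library 1328 to 1351 were still chosen, and without a 1 week library 1466 to 1488. The set's membership thus moved more than its size. Scaling by total reads gave 2538 peaks, 1246 of them among the 1599, TMM scaling 1854 (1555 shared) and group medians 1582 (1032 shared). Within 5 kb of a gene end in place of 1 kb lay 14.9% of late-lost peaks.

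The 727 decreases in the TNF arm were 540 to 640 when a library was left out of the fit, and 707 to 765 when a library was left out of the choice of peaks, an alternative added after the data were seen. In the latter, increases numbered 0 to 1. Increases numbered 1 with loess offsets and 1 in a fit of the compared groups only, where decreases numbered 980. For TNF at 72 h, leaving out a library gave 54 to 79 lower and 18 to 28 higher, and the compared groups only gave 54 higher. For TNF at 24 h it gave 35 to 64 lower and 7 to 13 higher. DESeq2 gave 144 lower and 27 higher, edgeR 25 higher, and the compared groups only 253 lower and 52 higher. With each library left out of the choice of peaks, TNF at 72 h gave 84 to 109 lower and 31 to 40 higher and TNF at 24 h 77 to 103 lower and 16 to 21 higher. The interaction gave 1 lower and 1 higher in the fit of the compared groups only. The causes were not tested. The 17 changes named for TNF or in the TNF arm by smallest p kept their direction and their side of the threshold in all 255 refits. They had been picked for small p-values without overlap of libraries, so this was largely set by the choice. Changes named through the gene lists are not among the 17.

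Deviations of same-numbered libraries correlated between -0.03 and 0.11. Libraries of different numbers were not compared, so whether replicate numbers pair the libraries was not tested. The 72 h TNF libraries numbered 1, 2 and 3 in the titles carry 2, 3 and 4 in their column names, and paired by the latter the correlations were 0.00041 to 0.031. With a replicate block, the TNF arm gave 730 lower and 0 higher, TNF at 72 h 98 and 33, and TNF at 24 h 88 and 18. With a block by the column numbers, added after the data were seen, these were 649 and 0, 67 and 24, and 88 and 16.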

Other observations

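Further promoter peaks, chosen after their values were seen, are given by their means, which entered the rule. At Lin7a, a synaptic scaffold, mean normalised reads were 269.5 in NSPs, 257 at 24 h, 134 at 72 h and 80.1 at 1 week. At Galnt13, a glycosyltransferase, they were 261, 244, 80.9 and 60.8, and at Lrfn5, a synaptic adhesion protein, 186, 188, 63.1 and 34.6. At St8sia6, a sialyltransferase, they were 198, 165, 58.5 and 48.2. In each of these 4, the 72 h mean was between the means of 24 h and 1 week, which held at 61 of the 67 promoter peaks. The 72 h mean was below the 1 week mean at 4, among them Syndig1 (154, 140.4, 48.7 and 61.2). Another of these overlaps the window of Gm32237 and is nearest to Nbea (216, 225, 69.1 and 83.2). The 72 h mean was above the 24 h mean at 2. One of them lies within Cox4i2 but overlaps the window of Gm32057 (63.6, 78.4, 94.2 and 19.4).

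The share of peaks that were late-lost differed between chromosomes, from 1.196% on chromosome 11, 1.296% on chromosome 19 and 1.32% on chromosome 17 to 2.21% on chromosome 15 and 2.22% on chromosome 13. These shares are values without a test.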
